A study of Mus musculus with 8 samples.

Results

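Genes for making ribosomes were followed in 8 pools of 2-cell mouse embryos. They comprise 2 genes of the RNA polymerase I machinery and 29 that act on the ribosomal RNA precursor in the nucleolus. The members were taken by symbol: gene names beginning with Nop, Nol, Utp or Rrp and a digit, Nolc1, names beginning with Polr1, and Taf1d. Of 14995 genes that carried a probeset with a single symbol, 31 met this rule, and each was represented by its brightest probeset over the 8 arrays. All 31 passed the filter on low values, a mean above log2 2.07, together with 11444 genes in all. Of the RNA polymerase I subunits, the symbol rule took Polr1d alone, and those listed under other symbols (Znrd1, Twistnb and Cd3eap) are among the other genes of ribosome production described at the end.

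Each pool was hybridised to 1 Affymetrix array. All dams were C57BL/6 females that had received 5 IU of equine and of human chorionic gonadotropin, and the pools differed in the sire. The sire was a C57BL/6 control male in 3 pools, a KDM1A transgenic male (KDM1A TG) in 3, and a non-transgenic littermate of such males (nonTG) in 2. Oviducts were rinsed for embryos between 46 and 48 hours after human chorionic gonadotropin was given, and a pool held 26 embryos on average. The labels used here give the genotype of the sire and not that of the embryos in a pool, and they do not give the promoter or the cell type that drives the transgene. KDM1A is a histone demethylase that acts on lysine 4 of histone H3. Its own gene was not analysed here, so the transgene was not checked in these arrays. Nothing in the labels says whether pools of a group came from separate males, so the p-values below measure the spread between these pools.

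Ribosome production begins when RNA polymerase I copies the ribosomal DNA into 1 long precursor. Small nucleolar RNAs, each held in a protein particle, then guide chemical modification and cleavage of the precursor, and the pieces mature along separate routes into the small and the large ribosomal subunit. In the mouse, the growing oocyte stores ribosomes, transcription of ribosomal DNA stops before ovulation, and it resumes around the 2-cell stage as the embryonic genome is activated and nucleolus precursor bodies turn into working nucleoli. Messenger RNA for this machinery in a 2-cell embryo can therefore be maternal or newly made, and the arrays do not separate the 2 sources.

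The arrays had similar medians, from 2.73 to 2.86 on the log2 scale, but KDM1A TG pools 1 and 3 had the widest values, with interquartile ranges of 2.38 and 2.60 against 1.87 to 2.09 in the other pools. Genes of the egg and of the 2-cell stage were present: 26 of 27 maternal oocyte genes and 19 of 23 2-cell activation genes passed the filter. Dppa3, an abundant maternal transcript, measured from 7.83 to 10.18 over the pools, and Zscan4d, which marks genome activation, from 3.17 to 4.47. All 19 markers of oviduct epithelium on the array passed as well, among them Foxj1, the regulator of ciliated cells, from 4.62 to 6.29. The mean over those markers was 4.87 to 5.63 in C57BL/6 pools, 5.29 to 6.07 in KDM1A TG pools and 5.68 to 5.81 in nonTG pools. In pooled material, fewer cells of a type and less RNA per cell cannot be told apart.

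Promoter sequence was described beside the expression values. Whether it bears on the members' levels over the pools was not tested. RefSeq (GRCm38.p6) gave a window from 250 bases before to 50 after the start for 25 of the 31 members. The E-box CACGTG, a palindrome recognised by the Myc family and by USF factors, occurred in the window of 5 of these 25 genes, Nol11, Nop2, Rrp7a, Utp18 and Utp4. That is 20.0% of them, against 8.09% of 27025 genes in the same table. Counted by window it was 5 of the members' 28 windows, against 7.15% of all 32851 windows. In the following stretches of 110 bases, 5′ to 3′ on the strand of the gene, capitals mark the E-box. They are shown because these 4 genes carry it upstream of the start and take roles in both subunit routes.
Nol11: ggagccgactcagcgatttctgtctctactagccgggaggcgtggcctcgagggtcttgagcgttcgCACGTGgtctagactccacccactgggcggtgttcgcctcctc
Nop2: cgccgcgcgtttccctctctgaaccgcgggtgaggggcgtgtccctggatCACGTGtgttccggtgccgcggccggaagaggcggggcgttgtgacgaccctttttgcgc
Utp18: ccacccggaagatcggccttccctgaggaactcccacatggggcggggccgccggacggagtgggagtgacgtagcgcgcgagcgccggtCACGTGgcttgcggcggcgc
Rrp7a: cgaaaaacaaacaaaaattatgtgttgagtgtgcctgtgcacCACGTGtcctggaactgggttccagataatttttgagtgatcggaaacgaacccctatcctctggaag
The stretch of Nol11 lies at chr11:107189382-107189491 on the minus strand, with the E-box beginning 43 bases before the start. Nop2 is on the plus strand at chr6:125131773-125131882, with the motif 60 bases before the start. For Utp18 the stretch is chr11:93885767-93885876 on the minus strand, and the distance is 20 bases. The motif of Rrp7a is the most distal, 208 bases before the start, in chr15:83122942-83123051 on the minus strand. The first 3 place the motif near the start, and in Rrp7a it lies toward the far end of the window.

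Both other motifs searched on either strand were also found. CCGGAAGT, the site of ETS factors, occurred in Nol10, Nol12, Rrp15 and Utp4, which is 16.0% of the members with a window against 4.31% of all genes. The CGCG palindrome of housekeeping promoters occurred in Nol9 alone, 4.0% against 0.525%. No motif contains another, and Utp4 held both an E-box and ETS sites. The members' windows had a median GC content of 58.3% against 52.7% for all windows, and the shares over all genes were not matched for GC content. These matches are letters in a window and were not tested as binding sites.

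The 31 genes tended to be high or low in the same pools, and this ordering cut across the sire groups. C57BL/6 pool 3 held the highest of the 8 values for 12 members, 38.7% of them, where it was highest for 13.2% of all genes tested. KDM1A TG pool 2 was highest for another 8, or 25.8% against 9.2% of all genes. The low values lay in nonTG pool 1, lowest for 14 members (45.2% against 12.7%), and in C57BL/6 pool 2, lowest for 9 (29% against 12.3%). Nolc1, a chaperone of small nucleolar RNA particles, follows this order: it measured 6.80, 6.10 and 7.48 in C57BL/6 pools 1 to 3, 6.97, 7.13 and 6.59 in the KDM1A TG pools, and 5.69 and 6.54 in the nonTG pools. Its C57BL/6 pools alone span most of the range of the 8 arrays.

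**Figure D1:**
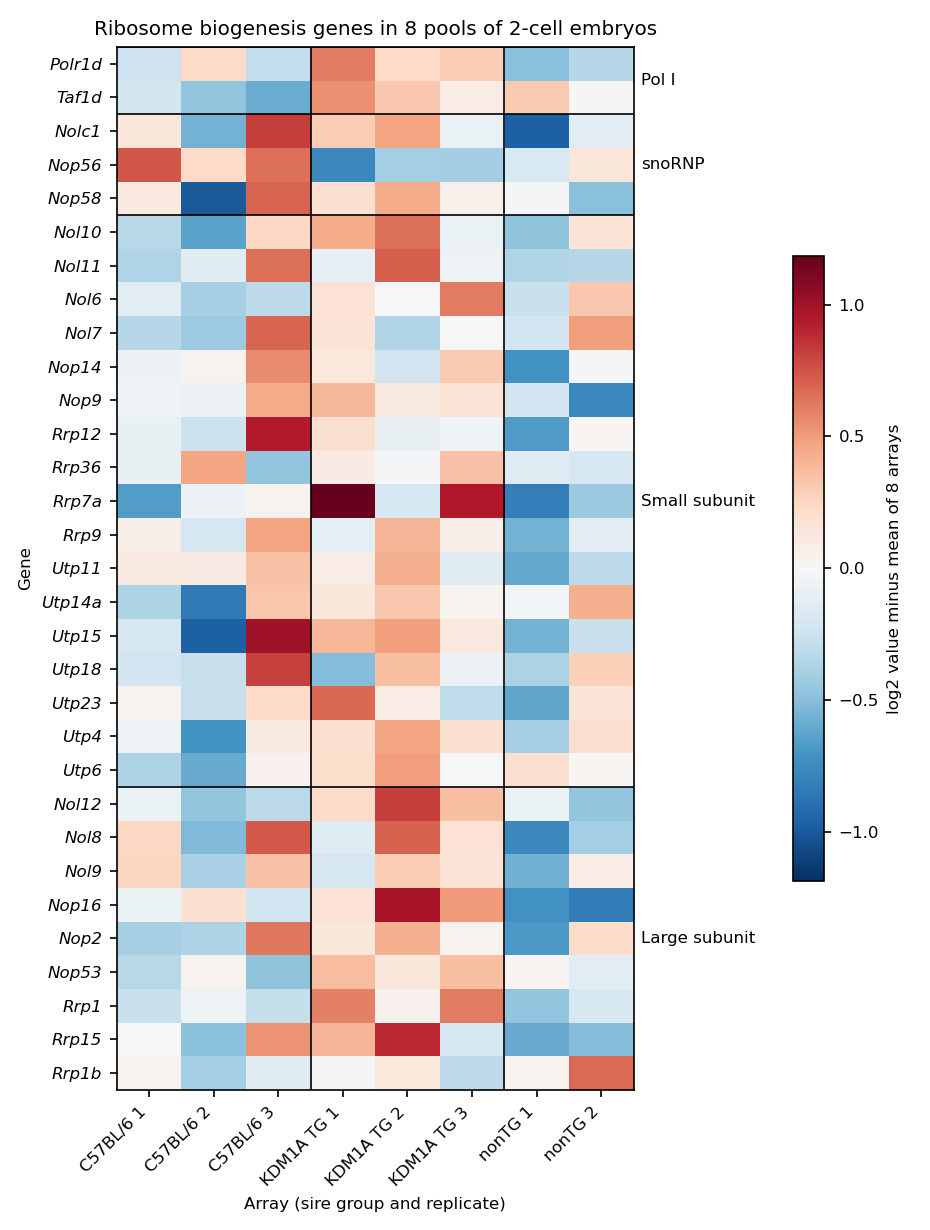
Each cell is the log2 value of a gene in an array minus the mean of that gene over the 8 arrays, with genes in rows grouped by role and arrays in columns grouped by sire. C57BL/6 pool 3 and KDM1A TG pool 2 are mostly red (above the mean), C57BL/6 pool 2 and nonTG pool 1 mostly blue, and Nop56 alone is blue in all 3 KDM1A TG pools.

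Within the control group, C57BL/6 pool 3 exceeded C57BL/6 pool 2 for 25 of 31 members, 80.6%, where the same held for 47.5% of all genes. The 6 exceptions were Nop16, Nop53, Polr1d, Rrp1, Rrp36 and Taf1d. Utp15, a component of the complex that first binds the precursor, showed the widest control values, 3.91, 3.14 and 5.12, while its KDM1A TG pools measured 4.50, 4.60 and 4.23 and its nonTG pools 3.55 and 3.85. C57BL/6 pools 2 and 3 lie below and above every other pool. The median SD of a member was 0.379 in the C57BL/6 group (n = 3) against 0.329 for all genes, 0.261 in the KDM1A TG group (n = 3) against 0.321, and 0.299 in the nonTG group (n = 2) against 0.286.

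Other gene lists moved over the same pools. Relative to the median of all tested genes in each array, the members' median was 0.54, 0.39 and 0.95 in C57BL/6 pools 1 to 3, 0.78, 1.12 and 0.61 in KDM1A TG pools, and 0.26 and 0.58 in nonTG pools. For 105 other genes of ribosome production the corresponding values were 1.12, 0.68 and 1.48, then 1.22, 1.28 and 0.97, then 0.83 and 1.10. Both lists were highest in C57BL/6 pool 3 or KDM1A TG pool 2 and lowest in C57BL/6 pool 2 or nonTG pool 1. The 27 maternal oocyte genes on the array measured 1.89, 0.72 and 1.37, then 0.78, 1.89 and 0.60, then 0.25 and 0.90. The 2-cell activation genes measured 1.04, 0.28 and 0.79, then 0.49, 0.99 and 0.34, then 0.25 and 0.47. Embryo genes were thus also high in KDM1A TG pool 2 and low in nonTG pool 1 and C57BL/6 pool 2, but C57BL/6 pool 1 stood high and KDM1A TG pool 3 low for them and not for the members. Oviduct epithelium markers measured 1.21, 1.99 and 1.01, then 1.97, 1.76 and 2.05, then 2.20 and 2.14, which puts C57BL/6 pool 3 lowest and nonTG pool 1 highest. The 18 stroma and muscle markers measured 0.73, 0.66 and 0.05, then 0.93, 1.17 and 2.20, then 1.73 and 0.32, with KDM1A TG pool 3 and nonTG pool 1 highest and C57BL/6 pool 3 lowest. Blood and immune markers ran from -0.29 to 0.79, cumulus and granulosa markers from -0.98 to -0.66, and sperm markers from -1.51 to -0.74. In KDM1A TG against C57BL/6 the stroma and muscle markers had a median change of 0.81 relative to all genes, 18 of 18 above 0 and 1 called, and the oviduct markers 0.30, 18 of 19 above 0 and 1 called. The part of these lists in the members' values was not tested beyond the fit with the oviduct marker mean given below.

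**Figure D2:**
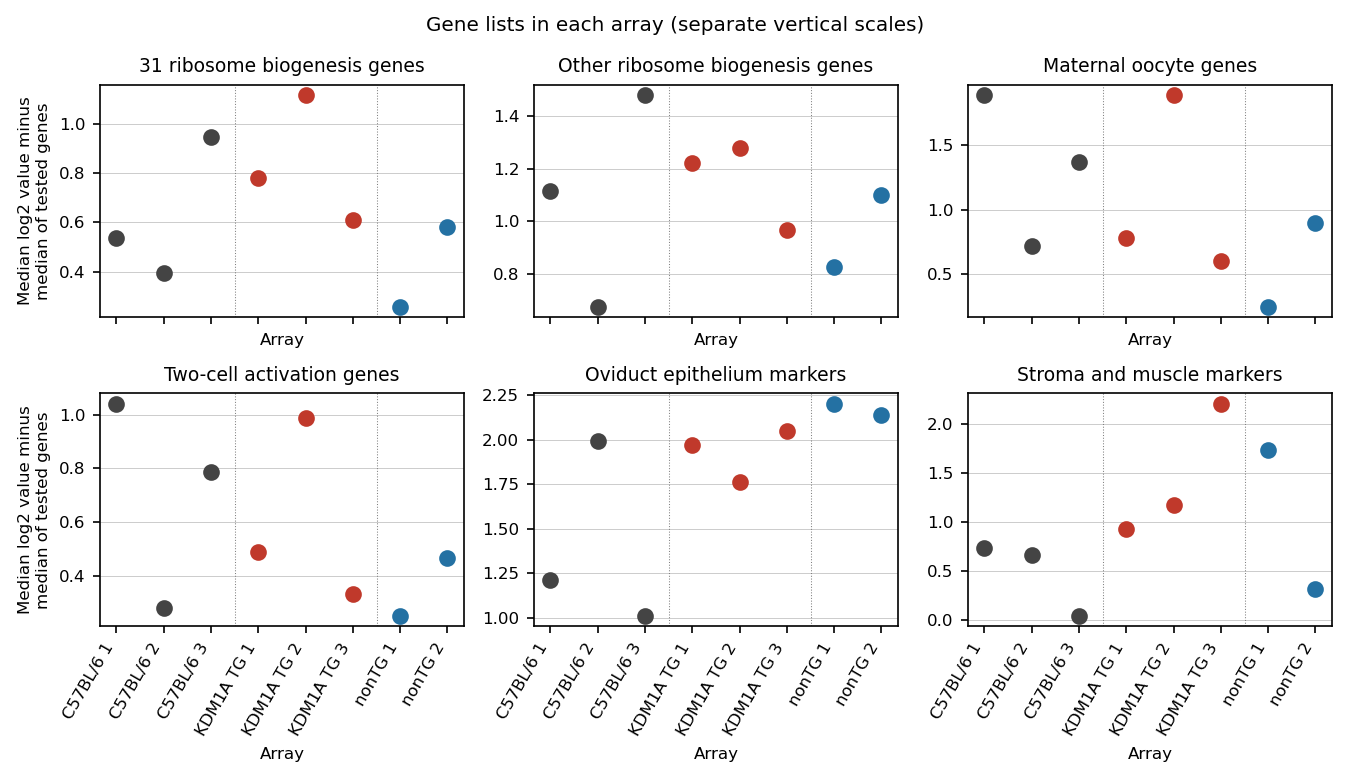
Points give, for each array, the median log2 value of a gene list minus the median of all tested genes in that array, with a separate vertical scale in each panel. The 31 ribosome biogenesis genes run from 0.26 in nonTG pool 1 to 1.12 in KDM1A TG pool 2, and the oviduct epithelium markers from 1.01 in C57BL/6 pool 3 to 2.20 in nonTG pool 1.

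In embryos of KDM1A TG sires against those of C57BL/6 sires, none of the 31 members passed at an adjusted p of 0.05 (limma, Benjamini-Hochberg over 11444 genes), where 0.725% of all genes passed. At an unadjusted p under 0.05 there were 3 members higher (Rrp7a, Nol12 and Taf1d), where 12.1% of all genes were, and 1 lower (Nop56), where 2.1% were. The values leaned upward, with a log2 change above 0 for 25 members and below 0 for 6, as did the array at large, where 64.9% of genes lay above 0. The median change of the members was 0.24 and that of all genes 0.18, a difference of 0.06. This difference turned negative under quantile normalization (-0.01), under cyclic loess (-0.05) and with the filter at the 50th percentile (-0.0005). It was also negative without C57BL/6 pool 2 (-0.14), without KDM1A TG pool 2 (-0.04) and with the mean of all probesets of a gene (-0.0097). Other alternatives raised it, most of all the fit that included the oviduct mean (0.35). The difference was 0.23 when C57BL/6 pool 3 was left out and 0.23 when KDM1A TG pool 3 was. It was 0.18 when no gene was filtered out. The median of all genes itself moved with the scaling, to 0.09, 0.07 and 0.25 under quantile normalization, cyclic loess and median centring.

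There were 7 members with every KDM1A TG pool above every C57BL/6 pool: Nol6, Nol12, Nop53, Polr1d, Rrp1, Taf1d and Utp4. This is 22.6% of the members against 14.5% of all genes. Without C57BL/6 pool 3 the number was 15, or 48.4% against 21.8%, and under quantile normalization and cyclic loess it was 3 and 2, shares of 9.68% and 6.45% against 10.1% and 8.57% of all genes. Taf1d, a subunit of the factor that places RNA polymerase I on its promoter, measured 7.06, 6.81 and 6.69 in C57BL/6, 7.82, 7.60 and 7.37 in KDM1A TG, and 7.58 and 7.29 in nonTG pools. All pools of both other groups lay above its C57BL/6 pools. The change against C57BL/6 was 0.74 (SE 0.32, adjusted p = 0.283 by limma) for KDM1A TG sires. Nol12, a nucleolar RNA-binding protein of large subunit maturation, measured 4.12, 3.73 and 3.88 in C57BL/6, 4.42, 5.02 and 4.55 in KDM1A TG, and 4.12 and 3.73 in nonTG pools. Its KDM1A TG pools lay above all 5 others, with a change of 0.75 against C57BL/6 (SE 0.32, limma adjusted p = 0.277).

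Rrp7a, a small subunit processing factor, measured 3.49, 4.08 and 4.19 in C57BL/6, 5.33, 3.95 and 5.10 in KDM1A TG, and 3.34 and 3.70 in nonTG pools. KDM1A TG pools 1 and 3 stood far above the rest, and KDM1A TG pool 2 lay inside the control range. The change was 0.88 against C57BL/6 (SE 0.34, limma adjusted p = 0.228). Without KDM1A TG pool 2 the change was 1.30 and passed (limma adjusted p = 0.0411). The 2 high pools are those with the widest values over the whole array, and whether that bears on the change was not tested. Over 20 alternatives the change of Rrp7a ran from 0.38 to 1.33, and it passed in 2. With array weights, which gave the lowest weight to KDM1A TG pool 2 (0.53), 14.8% of all genes passed, and among them were 3 members, Nop56 (-1.24), Rrp7a (1.33) and Rrp1 (0.76), with adjusted p of 0.00154, 0.00102 and 0.0475 in limma.

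**Figure D3:**
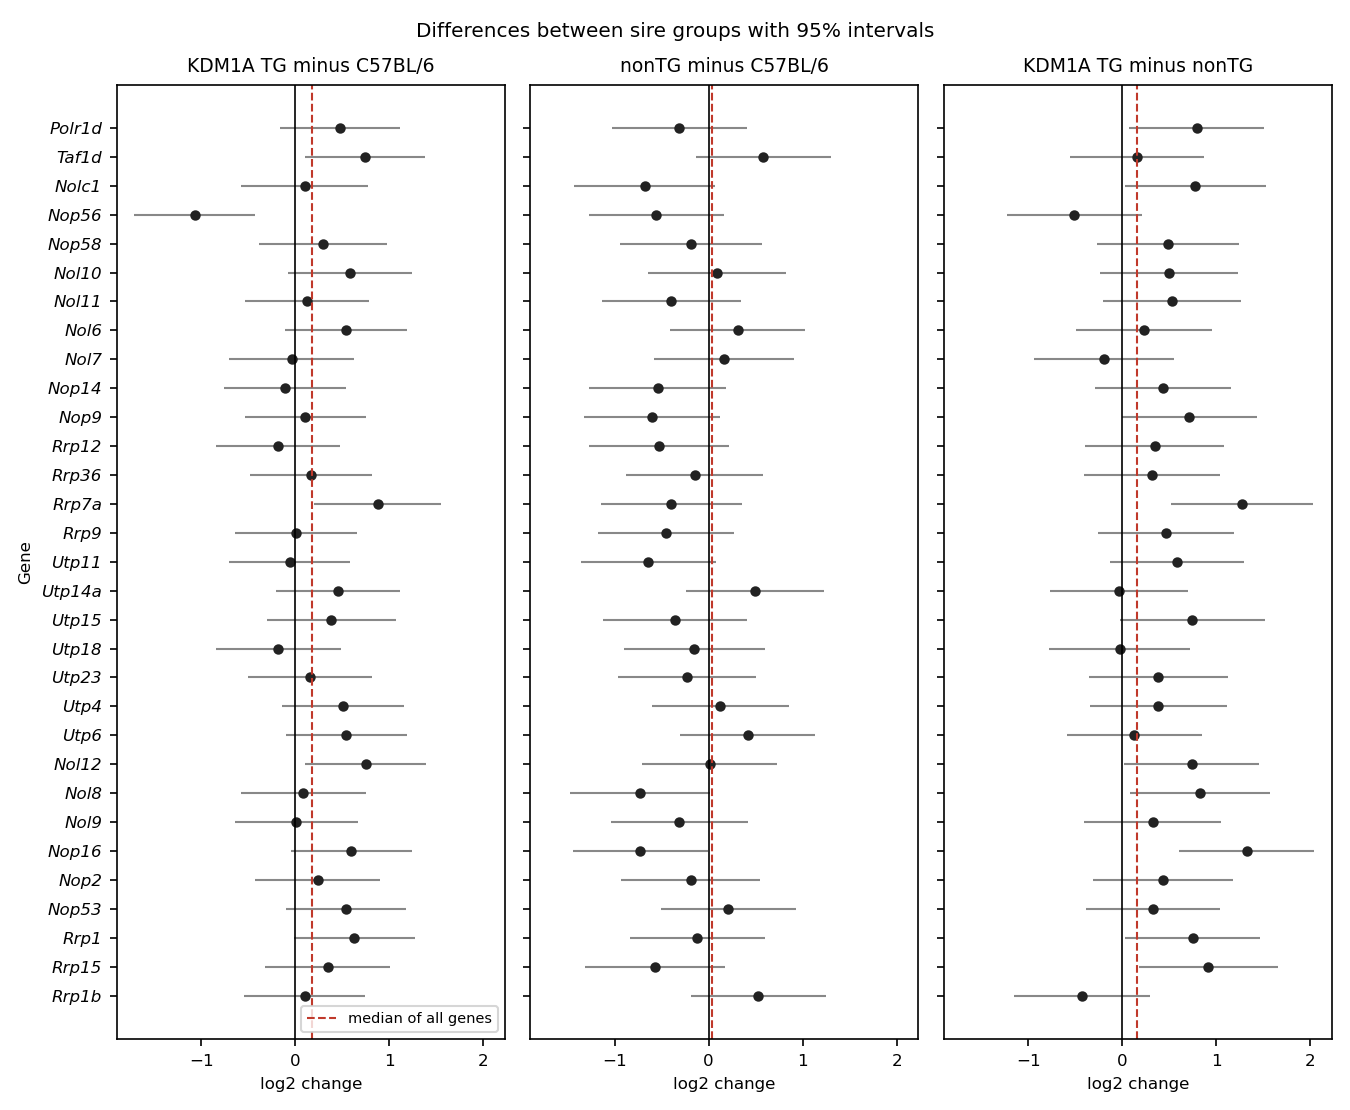
Points are log2 changes of the 31 members from the limma fit with 95% intervals, 1 panel per comparison, and the dashed line is the median of all genes tested (0.18, 0.04 and 0.16 from left to right). Nop56 lies far left in the first panel at -1.07, and in the right panel 26 of the 31 points lie above 0, with Nop16 (1.32) and Rrp7a (1.27) farthest right.

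Nop56, a core protein of the box C/D small nucleolar RNA particles, went the other way from most members. It measured 3.31, 2.81 and 3.23 in C57BL/6 pools, 1.81, 2.17 and 2.16 in KDM1A TG pools, and 2.39 and 2.72 in nonTG pools. The 3 groups did not overlap. The change was -1.07 in KDM1A TG against C57BL/6 (SE 0.32, 95% interval -1.71 to -0.43, limma adjusted p = 0.0958), -0.56 in nonTG against C57BL/6 and -0.51 in KDM1A TG against nonTG. It was the single member with all KDM1A TG pools below all C57BL/6 pools, where 5.34% of all genes were. Over 19 alternatives in which it was tested the change stayed between -1.24 and -0.81, and it passed in 2 of them, array weights and without C57BL/6 pool 2 (-1.22, adjusted p = 0.0462). Its KDM1A TG mean of 2.04 is just under the filter level of 2.07, so the value there is among the dim probesets of the array.

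A second probeset annotated to Nop56 together with Snord57, a small nucleolar RNA encoded inside the gene, ran the other way. It measured 2.21, 1.65 and 2.38 in C57BL/6, 3.64, 2.88 and 3.12 in KDM1A TG, and 2.38 and 3.17 in nonTG pools. Every KDM1A TG pool was above every C57BL/6 pool in that probeset. Its change was 1.13 in KDM1A TG against C57BL/6 (SE 0.34), and over 16072 probesets neither passed, with limma adjusted p of 0.218 for the used probeset and 0.232 for the shared one. RefSeq places 5 small RNA genes inside Nop56, among them Snord57 and Snord110. The files give no probe positions, so whether a probeset reads the messenger RNA or a small RNA was not tested.

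Taf1d raised the same question, with 7 small RNA genes inside it in RefSeq and 11 probesets that carry its symbol alone. Of these, 2 had identical values, and 9 passed the filter. The changes of those 9 in KDM1A TG against C57BL/6 ran from -0.36 to 0.94, 6 above 0 and 3 below. In nonTG against C57BL/6 they ran from -0.99 to 0.58, with 2 above 0 and 7 below. The brightest probeset, used above, is near the top of both ranges, and with the mean of all its probesets Taf1d changed sign in nonTG against C57BL/6 (-0.33). Directions given for Taf1d therefore hold for that probeset and not for the gene as a whole.

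**Figure D4:**
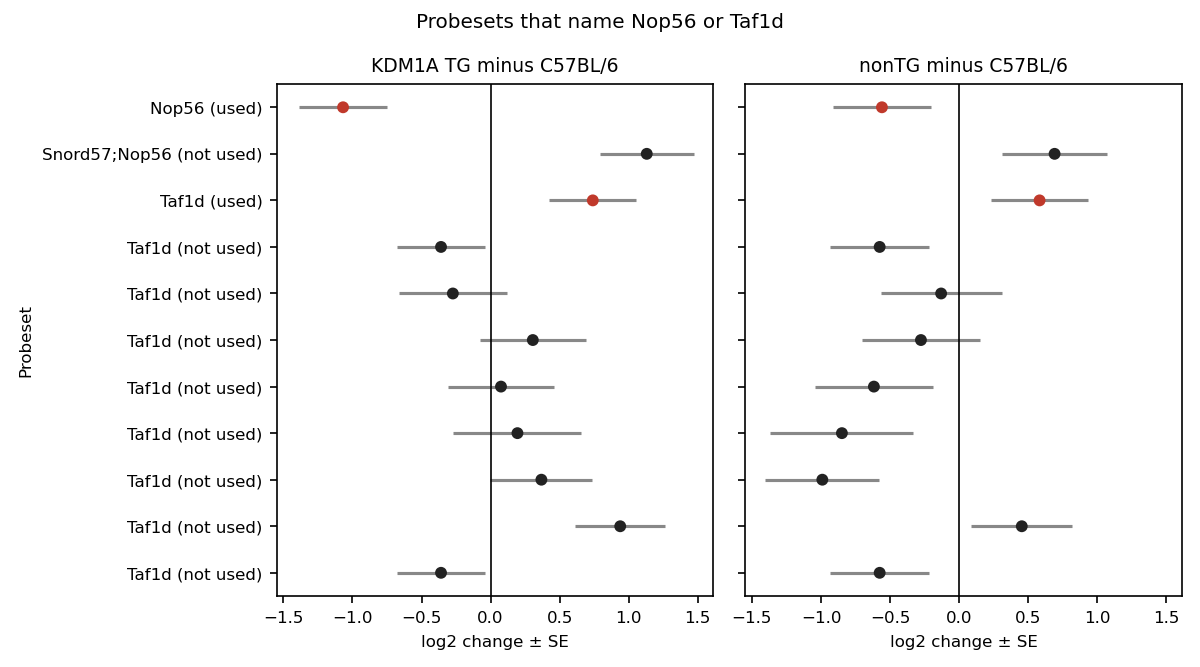
Points are log2 changes with 1 SE for each tested probeset annotated to Nop56 or Taf1d, against C57BL/6, in embryos of KDM1A TG sires (left) and nonTG sires (right), with the used probesets in red. The 2 Nop56 probesets lie on opposite sides of 0 at -1.07 and 1.13 in the left panel, and the Taf1d probesets spread from -0.36 to 0.94.

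Embryos of nonTG sires against those of C57BL/6 sires leaned the other way. The log2 change was below 0 for 21 members and above 0 for 10, while 53.2% of all genes lay above 0, and the members' median was -0.23 against 0.04 for all genes. No member passed (limma, 0.131% of all genes did), and at an unadjusted p under 0.05 there was 1 member lower, Nop16, and none higher, where 3.62% of all genes were lower and 4.61% higher. There were 6 members with both nonTG pools below all C57BL/6 pools (Nop9, Nop16, Nop56, Polr1d, Rrp15 and Utp11), 19.4% against 9.41% of all genes. Without nonTG pool 2 the number was 18, or 58.1% against 22.6%, and without C57BL/6 pool 2 it was 12, or 38.7% against 18.5%. Without nonTG pool 1 it was 7, or 22.6%, below the 26.4% of all genes, and under quantile normalization it was 4, or 12.9% against 8.4%. Only Rrp1b and Taf1d had both nonTG pools above the controls, 6.45% of the members against 15.4% of all genes.

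Utp11, a small subunit processome protein, measured 5.79, 5.79 and 6.04 in C57BL/6, 5.78, 6.12 and 5.55 in KDM1A TG, and 5.08 and 5.38 in nonTG pools. The nonTG pools were the 2 lowest, with a change of -0.64 against C57BL/6 (SE 0.36, limma adjusted p = 0.658). Nol8, a nucleolar protein of large subunit formation, measured 5.88, 5.12 and 6.37 in C57BL/6, 5.49, 6.33 and 5.81 in KDM1A TG, and 4.87 and 5.23 in nonTG pools. Its nonTG pools overlapped the lowest control pool, and the change was -0.73 (SE 0.37, limma adjusted p = 0.615). Rrp1b, a relative of Rrp1 in large subunit maturation, measured 3.36, 2.92 and 3.17 in C57BL/6, 3.30, 3.45 and 3.01 in KDM1A TG, and 3.36 and 3.99 in nonTG pools. It was highest in nonTG pool 2 and otherwise differed little, with a change of 0.53 (limma adjusted p = 0.701). Relative to the median of each array, the oviduct marker median was highest in the nonTG pools (2.20 and 2.14). The covariate used in the fit was another measure, the mean log2 level of these markers. That mean was 5.81 and 5.68 in nonTG pools, 6.07, 5.29 and 5.93 in KDM1A TG pools, and 5.15, 5.63 and 4.87 in C57BL/6 pools. With this covariate the members' median relative to all genes was 0.049 instead of -0.27. Without it, the members' relative median was -0.32 under quantile normalization and -0.35 under cyclic loess. The reason for these shifts was not tested.

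In embryos of KDM1A TG sires against those of nonTG sires, the members stood higher as a list. The log2 change was above 0 for 26 members and below 0 for 5, where 65.4% of all genes lay above 0, and the median of the members was 0.43 against 0.16 for all genes. All KDM1A TG pools exceeded both nonTG pools for 16 members, 51.6% against 16% of all genes, and the reverse held for Nop56 alone, 3.23% against 6.38%. No member passed (limma, 0.0437% of all genes did), and at an unadjusted p under 0.05 there were 8 higher and none lower, where 4.97% of all genes were higher and 1.43% lower. The members are brighter than most genes, with a median percentile within an array of 67.49 to 81.68. Shares over all genes were not matched for level in any comparison. With the filter at the 50th percentile the median of all genes was 0.22, and the members' median relative to it 0.24.

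The non-overlap is smaller where arrays are brought to a common distribution. Under quantile normalization 7 members were apart in this way, 22.6% against 11.3% of all genes, and under cyclic loess 8, or 25.8% against 10.8%. With median centring the number was 16 (51.6% against 18.3%). Without nonTG pool 2 it was 25, 80.6% against 33%, and without KDM1A TG pools 1 and 3 it was 23, 74.2% against 33.1%, with a single KDM1A TG pool left. Without nonTG pool 1 it was 17, 54.8% against 36.6%, with 4 members lower, and without KDM1A TG pool 2 it was also 17, 54.8% against 34%. The members' median relative to all genes was 0.28 (0.22 under quantile normalization, 0.26 under cyclic loess) and ranged from 0.14 without nonTG pool 1 to 0.56 without nonTG pool 2. KDM1A TG and nonTG pools also differed in the maternal oocyte list, whose median relative to all genes was 0.40, with 22 of 26 genes above 0, none of which passed the test. Oviduct markers had a relative median of -0.22 in the same contrast, and stroma and muscle markers 0.16, with 17 of 18 above 0. The part of these lists in the members' difference was not tested, except that the members' median relative to all genes was 0.29 in a fit with the oviduct mean as covariate.

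Nop16, a nucleolar protein of large subunit assembly, had the largest of these differences. It measured 4.01, 4.27 and 3.85 in C57BL/6, 4.26, 5.06 and 4.59 in KDM1A TG, and 3.37 and 3.26 in nonTG pools. Both nonTG pools lay below all 6 others, and KDM1A TG pool 1 fell within the control range. The change was 1.32 in KDM1A TG against nonTG (SE 0.36, 95% interval 0.60 to 2.04, limma adjusted p = 0.245) and -0.73 in nonTG against C57BL/6 (SE 0.36, adjusted p = 0.602). It was between 1.10 and 1.51 over 20 alternatives of the first contrast and passed in none. Rrp7a, given above, followed with 1.27 (SE 0.38, limma adjusted p = 0.346).

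**Figure D5:**
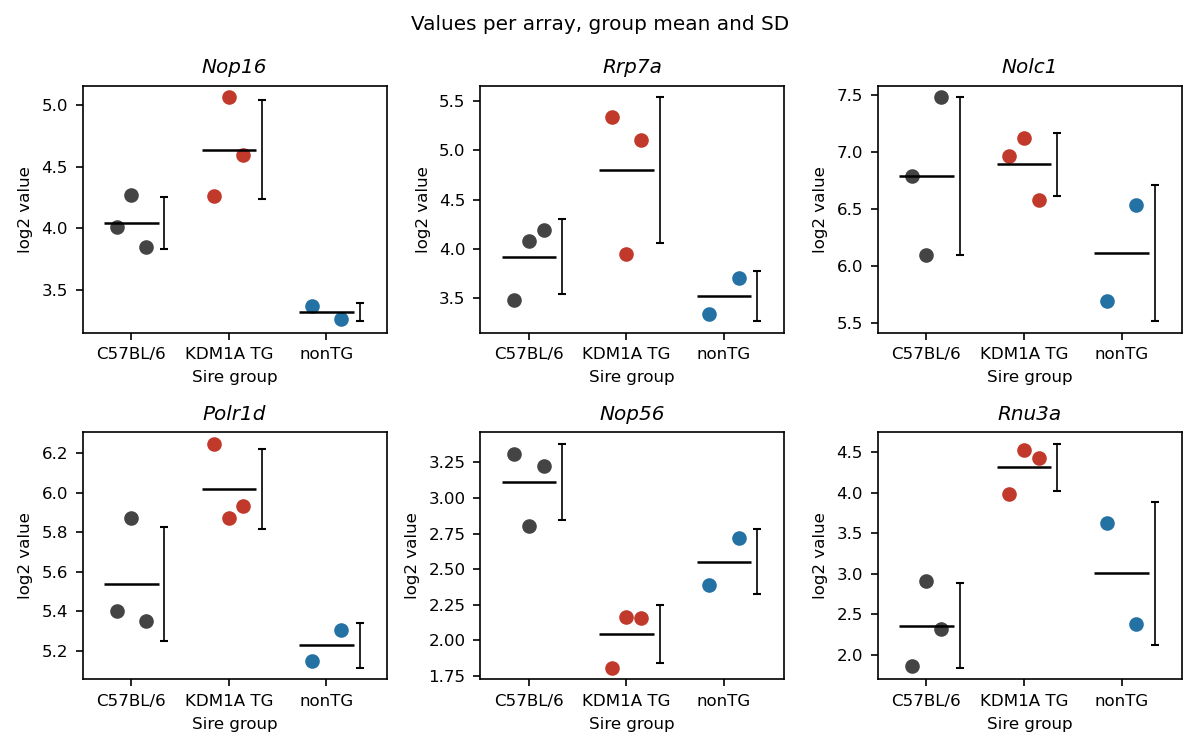
Points are log2 values of single arrays by sire group, with a bar at the group mean and the SD beside it (n = 3, 3 and 2), for 5 members and the U3 RNA gene Rnu3a, each on its own vertical scale. Nop16 and Polr1d are lowest in both nonTG pools, Nop56 is lowest in the KDM1A TG pools, and Rnu3a is highest in them.

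By role, the RNA polymerase I members were Polr1d and Taf1d. Polr1d and the used Taf1d probeset were above 0 in KDM1A TG embryos against either other group. So were 64.9% of all genes against C57BL/6 and 65.4% against nonTG, and the tested Taf1d probesets lay on both sides of 0 in both contrasts. Polr1d, a small subunit that RNA polymerase I shares with RNA polymerase III, measured 5.40, 5.87 and 5.35 in C57BL/6, 6.25, 5.87 and 5.93 in KDM1A TG, and 5.15 and 5.31 in nonTG pools. The 3 groups did not overlap, although C57BL/6 pool 2 and KDM1A TG pool 2 were equal at this precision. The changes were 0.48 in KDM1A TG against C57BL/6, -0.31 in nonTG against C57BL/6 and 0.79 in KDM1A TG against nonTG (limma adjusted p = 0.479, 0.817 and 0.772).

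In the used probesets, the genes of the snoRNP proteins did not move as 1 group. Nop58, the partner of Nop56 in the box C/D particle, measured 6.24, 5.13 and 6.82 in C57BL/6, 6.33, 6.57 and 6.18 in KDM1A TG, and 6.11 and 5.63 in nonTG pools. C57BL/6 pool 2 was its lowest and C57BL/6 pool 3 its highest, so the control pools enclosed all the others. Against C57BL/6 the change was 0.30 in KDM1A TG (SE 0.34) and -0.19 in nonTG pools (SE 0.38), beside -1.07 and -0.56 for the used Nop56 probeset. The probeset shared by Nop56 and Snord57 changed by 1.13 and 0.69, and which of the 2 reads the messenger RNA was not tested. Nolc1 differed by 0.10 and -0.68 in the same contrasts (limma adjusted p = 0.896 and 0.658). Nop58 hosts 4 small RNA genes in RefSeq, among them Snord11 and Snord70.

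The small subunit group was the largest, with 17 members, and stood near the array at large in KDM1A TG against C57BL/6. Its median relative to all genes was -0.03 there, with 12 above 0 and 5 below, -0.27 in nonTG against C57BL/6 and 0.23 in KDM1A TG against nonTG. Utp4, a subunit of the t-Utp complex that ties early processing to RNA polymerase I transcription, measured 4.90, 4.26 and 5.07 in C57BL/6, 5.17, 5.43 and 5.16 in KDM1A TG, and 4.57 and 5.16 in nonTG pools. All KDM1A TG pools lay above the controls, by a mean of 0.51 (SE 0.33, limma adjusted p = 0.463), and nonTG pool 2 lay level with KDM1A TG pool 3. Nol11, of the same complex, measured 3.60, 3.81 and 4.61 in C57BL/6, 3.86, 4.66 and 3.89 in KDM1A TG, and 3.59 and 3.62 in nonTG pools. This used probeset followed the pool order described above, with C57BL/6 pool 3 and KDM1A TG pool 2 high and both nonTG pools close to the lowest controls. Its change in KDM1A TG against C57BL/6 was 0.13, and other Nol11 probesets changed by -0.43 and 0.24. In the former, KDM1A TG pools (3.05, 2.99 and 3.09) lay below all C57BL/6 pools (3.33, 3.44 and 3.64). The pool order thus holds for the used probeset only.

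Utp15 belongs to that complex too, and Utp6, Utp18 and Rrp9 to later-joining particles of the small subunit processome. Utp6 measured 3.52, 3.29 and 3.93 in C57BL/6, 4.09, 4.38 and 3.89 in KDM1A TG, and 4.08 and 3.91 in nonTG pools. KDM1A TG pools 1 and 2 and nonTG pool 1 exceeded all controls, with changes of 0.54 and 0.42 against C57BL/6 (limma adjusted p = 0.433 and 0.761). Utp18 measured 3.90, 3.85 and 4.93 in C57BL/6, 3.61, 4.48 and 4.05 in KDM1A TG, and 3.74 and 4.40 in nonTG pools. C57BL/6 pool 3 was its highest value, and its change in KDM1A TG against C57BL/6 was -0.18, or 0.17 without C57BL/6 pool 3. Rrp9, the U3-specific protein, measured 5.31, 5.04 and 5.71 in C57BL/6, 5.14, 5.64 and 5.31 in KDM1A TG, and 4.69 and 5.11 in nonTG pools. Its KDM1A TG and C57BL/6 pools overlapped throughout (0.01, SE 0.32), and nonTG pool 1 was lowest.

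Nop14 and Rrp12, both needed for the maturation of 18S ribosomal RNA, lay a little below 0 in KDM1A TG against C57BL/6. Nop14 measured 3.58, 3.69 and 4.22 in C57BL/6, 3.78, 3.42 and 3.96 in KDM1A TG, and 2.93 and 3.64 in nonTG pools. Rrp12 measured 2.85, 2.67 and 3.87 in C57BL/6, 3.12, 2.85 and 2.88 in KDM1A TG, and 2.26 and 2.95 in nonTG pools. C57BL/6 pool 3 was the highest pool of both genes. The changes were -0.11 and -0.18, and without that pool they were 0.08 and 0.19. Nop9, an RNA-binding protein of the same route, measured 3.74, 3.70 and 4.22 in C57BL/6, 4.16, 3.89 and 3.94 in KDM1A TG, and 3.55 and 3.02 in nonTG pools. In this used probeset the nonTG pools lay below all others (0.71 in KDM1A TG against nonTG, limma adjusted p = 0.775). A dim probeset annotated to Nop9 together with Cideb (mean 2.14) changed by -0.12 in that contrast. Its change was -0.29 in KDM1A TG against C57BL/6 and -0.17 in nonTG against C57BL/6.

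Nol6, Nol7, Nol10, Rrp36, Utp14a and Utp23 complete the small subunit group. Nol6 measured 2.72, 2.47 and 2.55 in C57BL/6, 3.03, 2.86 and 3.47 in KDM1A TG, and 2.60 and 3.18 in nonTG pools, with all KDM1A TG pools above the controls by a mean of 0.54 (SE 0.32, limma adjusted p = 0.433). Utp14a, encoded on the X chromosome, measured 3.67, 3.19 and 4.37 in C57BL/6, 4.18, 4.36 and 4.07 in KDM1A TG, and 4.003 and 4.46 in nonTG pools. Its KDM1A TG and nonTG means differed by -0.03, and both stood above the C57BL/6 mean by 0.46 and 0.49 (limma adjusted p = 0.505 and 0.726). Nol7 measured from 5.63 in C57BL/6 pool 2 to 6.76 in C57BL/6 pool 3, with all other pools between. Nol10 ran from 2.94 in C57BL/6 pool 2 to 4.23 in KDM1A TG pool 2. Rrp36 was lowest in C57BL/6 pool 3 at 4.07 and highest in C57BL/6 pool 2 at 5.00, the reverse of the common order. Utp23, among the dimmest members, ran from 1.89 in nonTG pool 1 to 3.19 in KDM1A TG pool 1.

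The large subunit group had 9 members, all with a change above 0 in KDM1A TG against C57BL/6, although Nol8, Nol9, Nop2 and Rrp1b lay below 0 in at least 1 alternative. The changes ran from 0.01 for Nol9 to 0.75 for Nol12, and the median relative to all genes was 0.16 there, -0.23 in nonTG against C57BL/6 and 0.58 in KDM1A TG against nonTG. Rrp1, a nucleolar protein of internal spacer processing, measured 5.17, 5.37 and 5.15 in C57BL/6, 6.04, 5.49 and 6.06 in KDM1A TG, and 4.97 and 5.25 in nonTG pools. Its KDM1A TG pools lay above all 5 others, by 0.63 against C57BL/6 (SE 0.32) and 0.75 against nonTG (SE 0.36), with limma adjusted p of 0.362 and 0.775. Nop53, which recruits the exosome to the spacer, measured 5.09, 5.46 and 4.94 in C57BL/6, 5.78, 5.55 and 5.77 in KDM1A TG, and 5.45 and 5.29 in nonTG pools. The KDM1A TG pools were again above the rest, by 0.54 against C57BL/6 (SE 0.32, limma adjusted p = 0.433).

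Rrp15, a pre-60S factor, measured 3.62, 3.14 and 4.16 in C57BL/6, 4.03, 4.51 and 3.42 in KDM1A TG, and 3.03 and 3.11 in nonTG pools. Both nonTG pools were the lowest, and the change was 0.92 in KDM1A TG against nonTG (SE 0.37, limma adjusted p = 0.741). Nop2, the methyltransferase that modifies large subunit RNA, ran from 3.65 in nonTG pool 1 to 4.97 in C57BL/6 pool 3, and nonTG pool 2 at 4.55 was close to the KDM1A TG pools. Nol9, a kinase that acts on cleaved spacer RNA, ran from 3.31 in nonTG pool 1 to 4.23 in C57BL/6 pool 3, with the KDM1A TG pools at 3.68, 4.19 and 4.04. Neither separated any pair of groups.

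In the order of group means, KDM1A TG stood above both others for 23 of 31 members, 74.2% against 50% of all genes, and nonTG below both for 19, 61.3% against 36.3%. The full order nonTG, C57BL/6, KDM1A TG held for 16 members, 51.6% against 20.9%. Neighbours in this order overlapped for most members. KDM1A TG pools were all higher than C57BL/6 pools for 22.6% of members and all lower for 3.23%, against 14.5% and 5.34% of all genes. For nonTG and C57BL/6 pools the shares were 6.45% higher and 19.4% lower, against 15.4% and 9.41% of all genes.

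Other genes of ribosome production were taken from a list of roles and not by symbol pattern: 105 were on the array and all were tested. In KDM1A TG against C57BL/6, 1 of the 105 passed, upward, and none passed downward, where 0.725% of all genes passed. Rnu3a, a gene for the U3 small nucleolar RNA that pairs with the precursor and organises the small subunit processome, measured 1.86, 2.91 and 2.31 in C57BL/6, 3.98, 4.53 and 4.43 in KDM1A TG, and 3.63 and 2.38 in nonTG pools. It was higher in KDM1A TG pools, all of them above the other 5. C57BL/6 pool 1 lay under the filter level of 2.07 and the C57BL/6 mean was 2.36, so the control values are among the dim ones of the array. The change was 1.96 against C57BL/6 (SE 0.34, limma adjusted p = 0.000326) and 1.31 against nonTG (SE 0.38, adjusted p = 0.302). The first passed in 19 of 20 alternatives and was lost in the fit with the oviduct mean as covariate (1.81, adjusted p = 0.266). U3 has near-identical gene copies, which a probeset may not tell apart, and the member Rrp9, which binds U3, differed by 0.01 in the same contrast.

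The rest of the list lay close to the array at large in KDM1A TG against C57BL/6, with a median relative to all genes of 0.03. The RNA polymerase I subunits Znrd1, Twistnb and Cd3eap had changes of 0.42, 0.17 and -0.04. The largest after Rnu3a were the helicase Ddx47 at 0.89 and the RNA polymerase I terminator Ttf1 at 0.83 (limma adjusted p = 0.195 and 0.24). In nonTG against C57BL/6, 73 of 105 lay below 0, while 53.2% of all genes lay above 0, and the relative median was -0.26. None passed (limma), where 0.131% of all genes did. At an unadjusted p under 0.05, 1 was higher and 5 lower, where 4.61% and 3.62% of all genes were. Npm2, the oocyte nucleoplasmin, and Mki67, a nucleolar and chromosome-surface protein, had changes of -1.05 and -1.03 there (limma adjusted p = 0.318 and 0.355), and Npm2 is also in the maternal oocyte list. In KDM1A TG against nonTG, 101 of 105 lay above 0, where 65.4% of all genes did. None passed (limma), where 0.0437% of all genes did, and 13 were higher at an unadjusted p under 0.05, where 4.97% were. All KDM1A TG pools exceeded both nonTG pools for 45 of the 105, where they did for 16% of all genes. Among large subunit factors the changes were largest for Wdr18, at 1.23, and Ppan, at 1.07 (limma adjusted p = 0.339 and 0.53). The comparisons share the same control or nonTG pools, so the values of 1 contrast are not separate evidence for another.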

How the data were processed

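RNA from 8 embryo pools was amplified, labelled with biotin and hybridised to 1 Affymetrix array each. The values deposited by the authors are on a log2 scale, 1 per probeset. Tools listed in the submitters' processing notes are oligo, limma, RMA and R 3.1.0, with no role stated. Whether background was corrected is not given in the sources used here, and calls above background were not made. Of 22961 probesets, 15745 carried 1 symbol, 1320 several and 5896 none. Values were used as deposited, since array distributions differ and rescaling would remove part of any general shift. Group means over all 8 arrays were fitted by limma 3.58.1 (lmFit, eBayes; R 4.3.3) and tested two-sided with Benjamini-Hochberg adjustment at 0.05 over 11444 genes whose mean lay above the 30th percentile of probesets. The script was tested on simulated data. Array number, 2 or 3 per group, limits the precision. Alternatives covered filters, scalings, variance models, array weights, an oviduct covariate, a replicate block and left-out arrays; counts of pools that do not overlap under other scalings or without arrays were added after seeing the data. Members and gene lists were chosen with earlier results of these data known. Named were all members, the other pathway genes that passed, and those with the smallest p in their list; Dppa3, Zscan4d, Foxj1, Znrd1, Twistnb and Cd3eap were named after their values were seen.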

Additional observations from a re-analysis of the deposited data

How the results depend on the processing

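No member passed in nonTG against C57BL/6 or in KDM1A TG against nonTG under any alternative run. In KDM1A TG against C57BL/6 the number of members that passed was 3 with array weights and 1 at an adjusted p of 0.10, and 0 to 1 with single arrays left out. Of the other pathway genes 6 passed with array weights and 0 with the oviduct covariate, against 1. Array weights called 1694 genes in all against 83, and quantile normalization and cyclic loess 5 each. The members' median relative to all genes was 0.35 with the oviduct covariate in KDM1A TG against C57BL/6 and 0.049 in nonTG against C57BL/6. With single arrays left out it ran from -0.14 to 0.23, from -0.48 to -0.16, and in KDM1A TG against nonTG from 0.14 to 0.56. Over all 31 members, the change lay on both sides of 0 in at least 1 alternative for 17 in KDM1A TG against C57BL/6, 16 in nonTG against C57BL/6 and 9 in KDM1A TG against nonTG, with main changes of at most 0.38, 0.58 and 0.43 in size. For the 4 members on each side with the smallest p in a comparison, 24 results with 478 values, 13 values reversed. In KDM1A TG against C57BL/6 these were Nop14 (0.040 with array weights, -0.23 to 0.083 with single arrays left out), Rrp12 (0.14 with the oviduct covariate, -0.41 to 0.19) and Utp18 (0.46 with the covariate, -0.39 to 0.17). In nonTG against C57BL/6 it was Taf1d (-0.33 with the mean of its probesets), and in KDM1A TG against nonTG, Utp14a (0.0022 with median centring, -0.26 to 0.20) and Nol7 (-0.55 to 0.17). The cause was not tested. Same-numbered arrays did not pair: 7 pairs correlated at -0.378 to 0.179, 2 of them over 0.1. With the replicate number as a block, 0 members passed in each comparison, and the relative medians were 0.06, -0.28 and 0.25 in the order of the report. Limits are 2 or 3 pools per group, unknown background, and oviduct, stroma and muscle markers that differ between pools.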
